A study of Mus musculus with 18 samples.

Results

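The mitochondrial genome of the mouse encodes 37 genes, and all of them were rows of the liver expression table examined here. They were chosen as every row whose GENCODE vM21 symbol starts with mt-, which gave 37 of 47729 rows: 13 mRNAs, 2 rRNAs and 22 tRNAs. The rows are on the mitochondrial chromosome of GRCm38, from mt-Tf at chrM:1-68 to mt-Tp at chrM:15356-15422.

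Bulk RNA was taken from whole liver tissue of mice that had undergone liver ischemia-reperfusion, in which blood flow is stopped and then restored, or sham surgery. The labels describe 18 samples: 3 wild-type (wt), 3 Il22-/- and 3 Il22bp-/- after ischemia-reperfusion, and the same numbers after sham surgery. Hepatocytes respond to the cytokine IL-22, which IL-22BP binds and neutralises in solution. The labels used here give no strain, age, sex, ischemia time or reperfusion time, and do not say whether any samples share an animal. The p-values below therefore measure only the spread between these samples. Columns of the table carry the header IR (9 columns) or W (9 columns) and a number, and none names a genotype. W was read as sham by elimination, since 9 sham samples remain once the IR columns are set against the 9 ischemia-reperfusion samples. Genotypes are mixed within both groups, so no genotype is compared and the knocked-out genes were not used to check the labels.

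Mitochondrial DNA is transcribed from both strands as long precursors, and most mRNAs and rRNAs are released by cutting out the tRNAs that lie between them. The mRNAs encode core subunits of respiratory complexes I, III and IV and of the ATP synthase (complex V), the rRNAs and tRNAs serve the mitochondrial ribosome, and every other component is encoded in the nucleus. Hepatocytes are rich in mitochondria. The nuclear genome also carries copies of mitochondrial DNA, and a read that matches such a copy exactly cannot be placed in 1 of the 2 genomes by its sequence.

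Such copies bear on which members have values at all. The first pairs below are shown because they compare members with a nuclear pseudogene that matches nearly their whole length. They are GENCODE vM21 transcript sequences (GRCm38), 5′ to 3′ along each gene, and capitals mark the bases that differ between the 2 of a pair. Positions are counted from 1 at the first base of the member. mt-Atp6 (chrM:7927-7986 shown) encodes a subunit of the ATP synthase, and Gm10925 is on the minus strand of chromosome 1 (chr1:24614592-24614651 shown). The 678 bases compared had 0 differences.
mt-Atp6: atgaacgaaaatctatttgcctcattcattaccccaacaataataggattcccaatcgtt
Gm10925: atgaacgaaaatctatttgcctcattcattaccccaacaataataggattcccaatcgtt
mt-Nd3 (chrM:9459-9518 shown) encodes a complex I subunit, and Gm28438 lies on the same strand of chromosome 1 (chr1:24613060-24613119 shown). Over 345 bases they had 1 difference, T3C.
mt-Nd3: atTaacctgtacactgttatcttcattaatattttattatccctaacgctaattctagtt
Gm28438: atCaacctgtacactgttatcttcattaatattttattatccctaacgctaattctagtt
mt-Co1 (chrM:5328-5447 shown) encodes the catalytic subunit of complex IV, and Gm13340 is on the minus strand of chromosome 2 (chr2:22589528-22589647 shown). They differed at 37 of 1545 bases, of which C54A, A60G and G87A fall in the stretch shown.
mt-Co1: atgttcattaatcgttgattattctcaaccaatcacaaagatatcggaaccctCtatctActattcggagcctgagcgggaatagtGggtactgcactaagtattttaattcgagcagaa
Gm13340: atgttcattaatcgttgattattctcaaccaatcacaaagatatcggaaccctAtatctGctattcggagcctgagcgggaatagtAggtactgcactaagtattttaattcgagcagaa

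The 5 tRNAs with the highest values are shown with their anticodon in capitals, from the same transcripts. mt-Tp (proline, chrM:15356-15422), mt-Tq (glutamine, chrM:3772-3842), mt-Te (glutamate, chrM:14071-14139) and mt-Ta (alanine, chrM:5018-5086) are on the minus strand, and mt-Tl1 (leucine, chrM:2676-2750) is on the plus strand.
mt-Tp: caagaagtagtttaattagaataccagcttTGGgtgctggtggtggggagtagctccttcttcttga
mt-Tl1: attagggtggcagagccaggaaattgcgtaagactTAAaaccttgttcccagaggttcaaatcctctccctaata
mt-Tq: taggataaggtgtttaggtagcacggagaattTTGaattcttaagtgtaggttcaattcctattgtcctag
mt-Te: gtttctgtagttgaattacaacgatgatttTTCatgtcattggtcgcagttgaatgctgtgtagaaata
mt-Ta: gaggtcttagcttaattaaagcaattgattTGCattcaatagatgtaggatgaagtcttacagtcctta

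Values are the deposited ones, gene counts divided by 1 size factor per column. Columns held 10176617 to 12763837 reads, recovered from the values. Several features of the libraries stand apart from the labels. All 9 W columns held Xist, the RNA of the inactive X chromosome, at 1751 to 5335, with summed Y-linked values of at most 2.07. Among the IR columns, 3 were like them (IR3, IR6 and IR9), 4 held Y-linked values of 734 to 1034 with Xist at most 11.5 (IR1, IR2, IR4 and IR7), and 2 held both (IR5 and IR8). Surgery and these sex-linked genes therefore differ together in part. Pmel, a pigment gene, was at 95.4 to 151 in 11 columns (7 IR, 4 W) and at 0.991 to 6.21 in the other 7 (2 IR, 5 W), a split that crosses surgery. For the liver label, the 11 hepatocyte markers found, Alb among them, were abundant in every column, with a summed value of 597508 to 956863 in IR and 2040682 to 2478062 in W. Alb made up most of that sum. Of the 11, 7 had all IR values below all W values, and 1, Hnf4a, had all above, at 6259 to 9272 against 3918 to 5329. Summed neutrophil markers were 328 to 4078 in IR against 57.0 to 128 in W, with Mpo at most 2.07 in any column. Monocyte and macrophage markers were 3595 to 8528 against 7451 to 10599, lymphocyte markers 17.2 to 54.1 against 106 to 194, and endothelial markers 1614 to 2819 against 2731 to 4225. Stellate cell markers were 2574 to 4003 against 3748 to 4632, cholangiocyte markers 850 to 14609 against 373 to 744, and erythroid markers 147 to 3356 against 532 to 3053. A sum can hide genes that go opposite ways. Of the 12 monocyte and macrophage markers, 5 had all IR values below all W values and 2 had all above. Of the 7 stellate cell markers, 3 had all IR values below and 3 all above. Of the 7 endothelial markers, 3 had all IR values below and 0 all above, while Cdh5 was at 199 to 923 in IR against 255 to 359 in W. Spp1 made up most of the cholangiocyte sum, and of those 5 markers only 1, Sox9, had all IR values above. The part of these cell types in the differences below was not tested, and in whole tissue fewer cells of a type and less RNA per cell cannot be told apart.

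The members fell into abundant and nearly empty genes. The 7 mRNAs mt-Nd1, mt-Nd2, mt-Nd4, mt-Nd5, mt-Nd6, mt-Co1 and mt-Cytb and both rRNAs together held at least 99.5% of the summed mitochondrial value in every column. The other 6 mRNAs (mt-Co2, mt-Co3, mt-Atp6, mt-Atp8, mt-Nd3 and mt-Nd4l) received 94 reads in all, out of 206236620 reads over the 18 columns. They encode subunits of complexes I, IV and V. mt-Nd3 took 91 of those reads, at 0 to 17.6 per column, mt-Co2 2 and mt-Atp6 1. No read was listed for 10 members: the mRNAs mt-Atp8, mt-Co3 and mt-Nd4l, and 7 tRNAs. A count of 0 in a column allows up to 3 reads in that column.

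The nearly empty mRNAs are neighbours. A stretch of 4653 bases, chrM:6390-11042, is matched in part, in the same order, by 7 pseudogenes on the minus strand of chromosome 1 (chr1:24611535-24616197): Gm29216, Gm28661, Gm10925, Gm28437, Gm28438, Gm10222 and Gm28439. The distance between neighbouring genes was equal on both chromosomes for 5 of 6 neighbour pairs, and for mt-Nd3 and mt-Nd4l it was 73 bases against 74. All 11 members that lie wholly in this stretch (those 6 mRNAs and mt-Ts1, mt-Td, mt-Tk, mt-Tg and mt-Tr) had values of at most 32.2 in every column, and 7 of them had no read. The gaps between the matched parts hold nearly all bases of these tRNAs and most of mt-Atp8. Only the lengths of the gaps were compared, so a chromosome 1 copy of these members is not shown. Exact matches were wide: Gm28661 to mt-Co2, Gm10925 to mt-Atp6, Gm28437 to mt-Co3, Gm10222 to mt-Nd4l and Gm28439 to the first 876 bases of mt-Nd4 had 0 differences over the bases compared.

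The members of 100 bases or more show the same division by sequence. Of mt-Co2, mt-Atp6, mt-Co3, mt-Nd3 and mt-Nd4l, 98.3% to 99.9% of bases lay in a run of 100 bases that a nuclear transcript holds unchanged. That share was 63.6% for mt-Nd4, 48.1% for mt-Co1, 12.4% for mt-Nd2 and 0 for both rRNAs, mt-Nd1, mt-Nd5, mt-Nd6 and mt-Cytb. mt-Atp8 was also at 0 reads with a share of 0, because the annotated copy that overlaps its end, Gm10925, covers less than a run of 100 bases of it. How reads with several equal placements were counted is not given in the sources used here. The chromosome 1 copies were low too: apart from Gm28438 in IR3, no value of the 7 exceeded 14.9. A value of 0 for these members is thus a value of the table and does not show that the RNA was absent. How far it touches the levels of mt-Co1 and mt-Nd4, which hold shared runs too, was not tested.

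**Figure D1:**
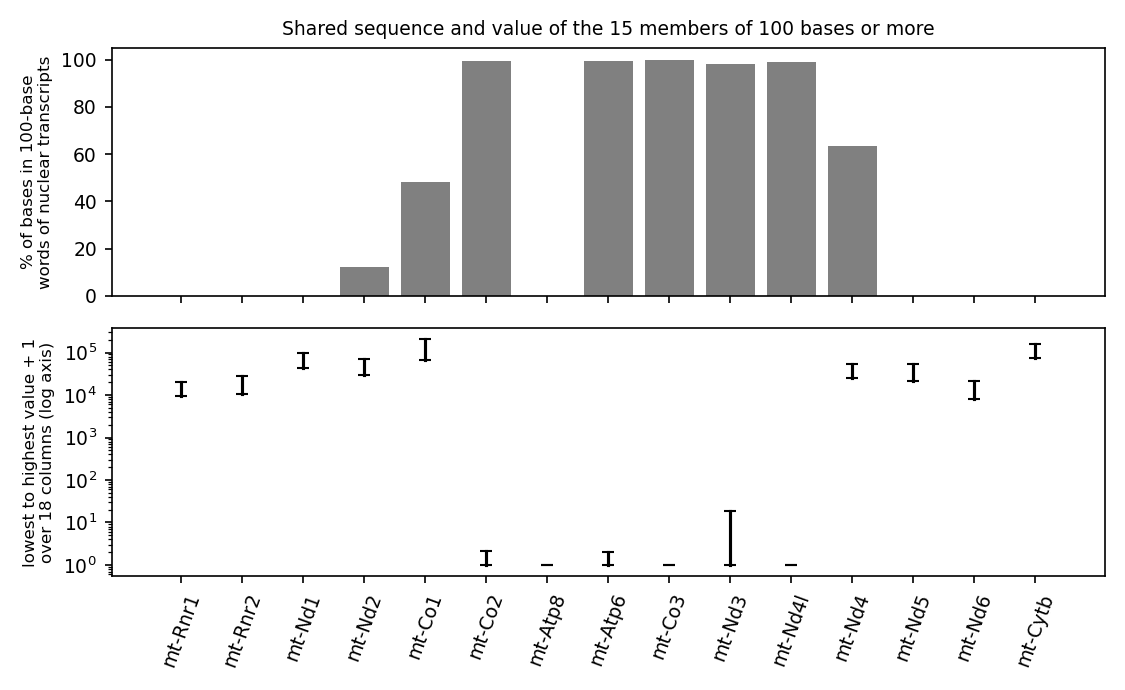
Upper panel: percent of each member's bases that lie in a 100-base run held unchanged by a nuclear transcript of GENCODE vM21. Lower panel: lowest and highest deposited value plus 1 over the 18 columns, on a log axis. The 5 members with shares of 98.3% or more, and mt-Atp8, reach at most 17.6, while the 9 others are at 8077 or more in every column.

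Of the tRNAs, mt-Tf, mt-Tv and mt-Tn lie outside the stretch matched by the chromosome 1 pseudogenes and had a few reads (18, 19 and 62 in all), and mt-Tw, mt-Ty and mt-Th had none. tRNA genes are 59 to 75 bases long, and reads counted there can come from precursors or from neighbouring RNAs. The kit named in the labels is not stated to keep strand, so reads from the opposite strand cannot be told apart. This touches mt-Nd6, the only mRNA of the minus strand, and the 8 tRNAs on that strand. Neighbours that overlap, such as mt-Nd5 with mt-Nd6 and mt-Nd4l with mt-Nd4, may also share reads.

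**Figure D2:**
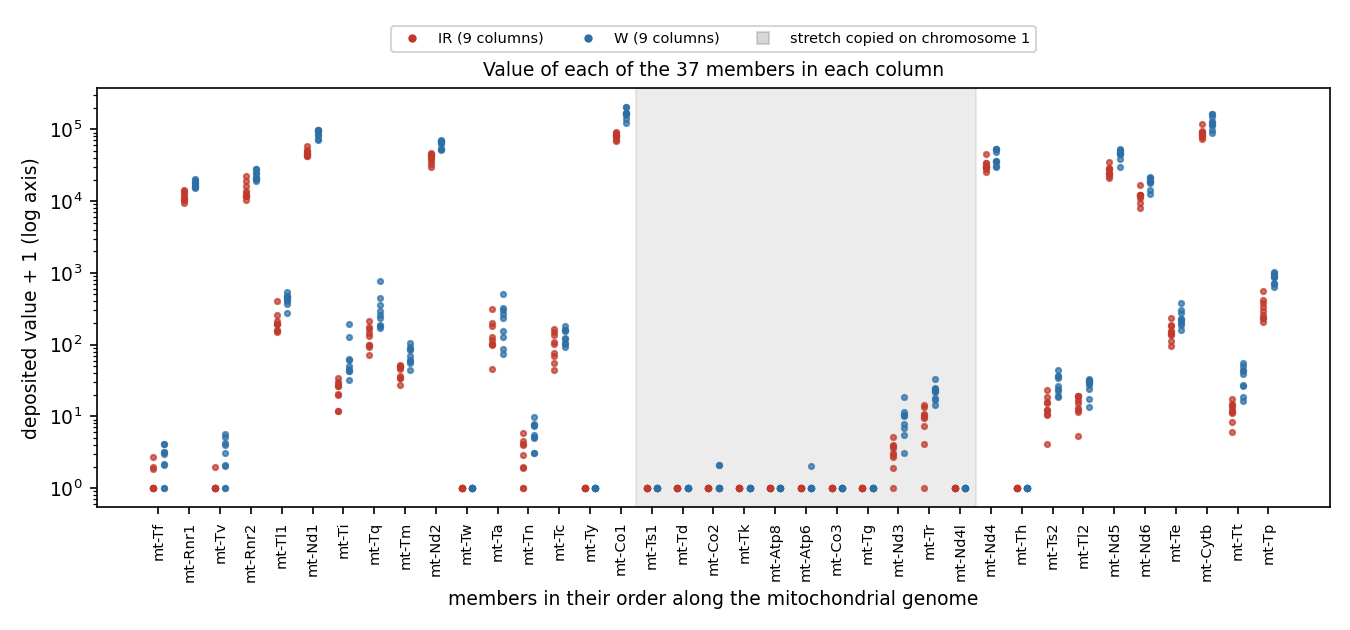
Deposited value plus 1 (log axis) of each of the 37 members in each of the 9 IR and 9 W columns, in genome order. The shaded members lie in the stretch matched in part by 7 pseudogenes on chromosome 1 and reach at most 32.2. The abundant mRNAs on both sides of it are at 8077 or more. Sequence between those pseudogenes was not compared.

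The mitochondrially encoded genes took a smaller share of the counted reads after ischemia-reperfusion. Only 94 reads fell on 6 of the 13 mRNAs, so this share rests almost wholly on the other 7 mRNAs and the 2 rRNAs. The share of the 37 members in the column total was 2.94% to 3.82% in the 9 IR columns (median 3.46%, mean 3.39% ± 0.336, SD, n = 9) and 3.61% to 5.63% in the 9 W columns (median 4.76%, mean 4.81% ± 0.670, SD, n = 9). The difference of means was -1.42 percentage points (exact two-sided permutation test over all 48620 assignments, p = 0.000165). The groups overlapped in 1 W column, W2 at 3.61%, and the other 8 W columns lay above every IR column. The 13 mRNAs as a share of protein-coding rows differed by -1.35 points, with the same exact p of 0.000165.

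The summed deposited value of the members separated the groups completely. It was 314637 to 437597 in IR (median 342348) and 448510 to 706060 in W (median 602596), and the exact permutation p of 4.11e-05 is the smallest that 9 against 9 columns can give. The share and the sum use different denominators. Totals of the deposited values were 9088021 to 11588384 in IR and 11457888 to 12650569 in W, and Alb alone was lower in all 9 IR columns, at 329683 to 687471 against 1621090 to 1968872.

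The lower share was also present in columns matched for the sex-linked genes. The 3 IR columns without Y-linked reads had 3.26% to 3.79% against 3.61% to 5.63% in the 9 W columns, all of which lack such reads (difference of means -1.31 points, exact permutation p = 0.0182). The 4 IR columns with Y-linked reads and no Xist had 2.94% to 3.82%, and the 2 columns with both had 3.49% and 3.68%, so the IR classes overlapped. Among the columns high in Pmel, 7 IR columns had 2.95% to 3.82% and 4 W columns 4.24% to 5.63%, without overlap (exact permutation p = 0.00606). Among the columns low in Pmel, 2 IR columns had 2.94% and 3.49% and 5 W columns 3.61% to 5.52%, again without overlap, but 2 against 5 columns cannot give an exact p below 0.0952.

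**Figure D3:**
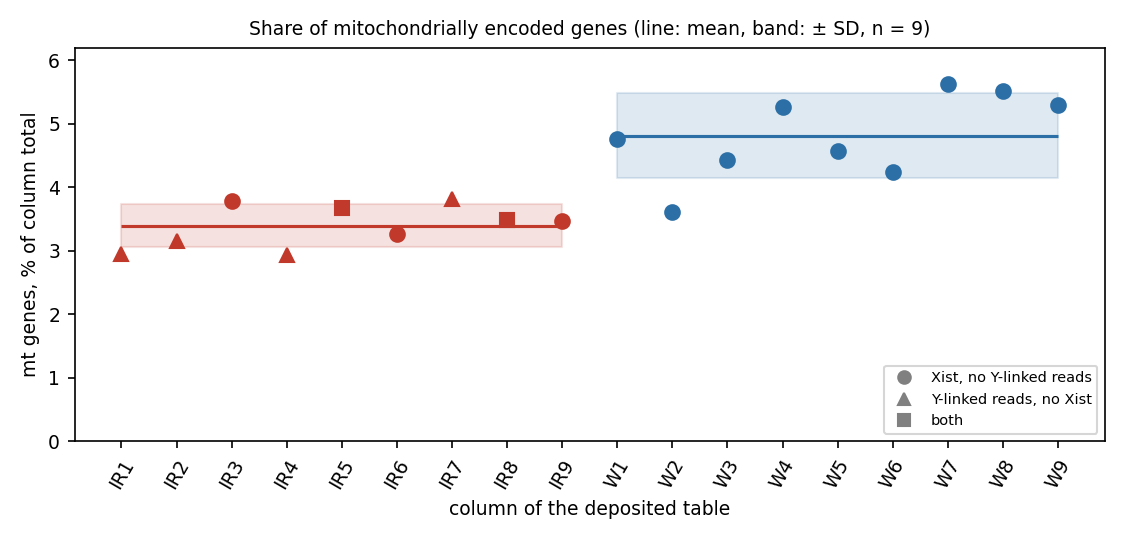
Share of the 37 members in each column's total, in percent, with the mean (line) and SD (band) of each group of 9. Symbols give the sex-linked class of each column, and 8 of the 9 W columns lie above the highest IR column, at 3.82%.

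Gene by gene, 21 of the 37 members could be tested, those with a value of at least 10 in at least 9 columns. Of these, 19 were lower in IR (limma on log2(value + 1), Benjamini-Hochberg adjusted over 12501 features, threshold 0.05), 0 were higher and 2 were not called. Over all features tested 38.0% were lower and 37.8% higher, so a lower call by itself was common in this comparison. At an unadjusted p under 0.05, 20 members were lower and 0 higher, and edgeR and DESeq2 on the recovered reads each called 19 lower and 0 higher. The median log2 difference (IR minus W) of the members was -0.78, beside 0.005 over all features. All 9 IR values lay below all 9 W values for 6 of the 21 members (mt-Co1, mt-Nd1, mt-Nd2, mt-Rnr1, mt-Tp and mt-Tr), beside 20.6% of all features. Such separation by itself was thus common too, and is not read as a trait of the members. Of the tested members, mt-Tr, mt-Ts2, mt-Tl2 and mt-Tt reached 10 in fewer than 9 IR columns and passed the filter through the W columns. For these 4 the filter itself favoured lower values in IR. Their calls, and the separation of mt-Tr, therefore cannot be read as support for a fall. The other 17 tested members were at 10 or more in every column, and all of them except mt-Ta and mt-Tc were called lower.

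mt-Co1 was at 67983 to 93058 in IR (median 81498) and at 122536 to 203566 in W (median 169480), so no IR column reached the lowest W column. Its log2 difference of -1.04 (SE 0.13, adjusted p = 4.43e-07) was the largest fall among the mRNAs tested. It was -1.04 again with the 3 IR columns without Y-linked reads.

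All 5 complex I mRNAs tested were called lower. mt-Nd1, part of the membrane arm of complex I next to the quinone site, was at 42763 to 59194 (median 46268) in IR and 71196 to 99212 (median 92455) in W, a log2 difference of -0.89 (SE 0.11, adjusted p = 4.6e-07). mt-Nd2, a proton-pumping subunit, was at 30323 to 46786 (median 40493) against 50969 to 70462 (median 67034), a log2 difference of -0.65 (SE 0.12, adjusted p = 4.32e-05). The groups did not overlap for either gene, but mt-Nd2 was not called among the 7 columns low in Pmel (adjusted p = 0.0617). mt-Nd5, another pumping subunit, was at 21314 to 35017 (median 24808) against 29962 to 53181 (median 46244). Its log2 difference was -0.78 (SE 0.12, adjusted p = 1.09e-05), and the groups overlapped.

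mt-Nd4, also a pumping subunit, had the smallest log2 difference among the mRNAs called. It was at 25593 to 45893 (median 30131) in IR and 29957 to 54055 (median 36776) in W, and the ranges overlapped over much of their length. Its log2 difference of -0.38 (SE 0.15, adjusted p = 0.0244) was not called without W7 (adjusted p = 0.0515), without W9 (0.0513), without the 6 IR columns with Y-linked reads (0.392), without the 2 IR columns with both sex-linked signals (0.0705), with no filter on low values (0.103) or among the columns of either Pmel class (0.162 low, 0.104 high). mt-Nd6, encoded on the other strand, was at 8077 to 17030 (median 12040) against 12695 to 21339 (median 18942). The groups overlapped, with a log2 difference of -0.64 (SE 0.13, adjusted p = 0.000203).

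mt-Cytb, the only mitochondrially encoded subunit of complex III, was at 72971 to 119770 (median 86857) in IR and 88141 to 162000 (median 126418) in W. The groups overlapped, and the log2 difference was -0.51 (SE 0.15, adjusted p = 0.00413). It was -0.35 and not called (adjusted p = 0.187) with the 3 IR columns without Y-linked reads, and -0.55 and not called (adjusted p = 0.233) among the 7 columns low in Pmel. With no filter on low values it was not called either (adjusted p = 0.108). For mt-Nd4 and mt-Cytb the highest IR column was IR3, which also had the highest mt-Nd1 and mt-Nd6 of the group.

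The rRNAs of the mitochondrial ribosome fell as well. mt-Rnr1, the small-subunit rRNA, was at 9372 to 14354 (median 11194) in IR and 15036 to 20483 (median 17291) in W, without overlap, a log2 difference of -0.58 (SE 0.10, adjusted p = 2.49e-05). mt-Rnr2, the large-subunit rRNA, was at 10386 to 22034 (median 13165) against 19280 to 28464 (median 21357). Its log2 difference was -0.71 (SE 0.14, adjusted p = 0.000126), with overlap from IR8 at 22034. The 2 IR columns with both sex-linked signals had the highest values of both rRNAs in the group, at 13906 and 14354 for mt-Rnr1 and at 19106 and 22034 for mt-Rnr2. Neither rRNA was called among the 7 columns low in Pmel (adjusted p = 0.144 and 0.257).

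Per kilobase of whole gene, mean deposited values in W were 111078 for mt-Cytb, 108241 for mt-Co1, 92486 for mt-Nd1, 60392 for mt-Nd2, 35233 for mt-Nd6, 30602 for mt-Nd4, 24840 for mt-Nd5, 18266 for mt-Rnr1 and 14621 for mt-Rnr2. In IR the order began with mt-Cytb at 77275, mt-Co1 at 52405 and mt-Nd1 at 49904. The order turns on the length used. Per kilobase of sequence that is not in a shared run of 100 bases, mt-Co1 came first, at 208519 in W and 100955 in IR, and mt-Nd4 was at 84002 in W and 63705 in IR. mt-Nd2 was at 68962 in W and 43867 in IR on that scale, and the members with no shared run keep the values above. The rRNAs were below every abundant mRNA in W on both scales. Whether the libraries were enriched for polyadenylated RNA or depleted of rRNA is not given in the sources used here.

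Among the tRNAs, 12 of 22 were tested and 10 were lower in IR, beside 38.0% of all features. Those 10 include mt-Tr, mt-Ts2, mt-Tl2 and mt-Tt, which passed the filter through the W columns, so the filter favoured lower calls for them. mt-Tp, at the end of the genome, was at 209 to 560 (median 288) in IR and 629 to 1024 (median 888) in W, without overlap. Its log2 difference was -1.46 (SE 0.16, adjusted p = 9.44e-08). mt-Tl1, which lies between mt-Rnr2 and mt-Nd1, was at 150 to 406 (median 192) against 278 to 548 (median 452), with a log2 difference of -1.07 (SE 0.16, adjusted p = 5.99e-06). Its groups overlapped through IR5 at 406.

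mt-Tq was at 69.5 to 211 (median 129) in IR and 168 to 774 (median 260) in W, a log2 difference of -1.20 (SE 0.27, adjusted p = 0.000408). mt-Te was at 94.6 to 237 (median 147) against 160 to 376 (median 227), a log2 difference of -0.66 (SE 0.17, adjusted p = 0.00161). mt-Ta was at 44.7 to 317 (median 117) against 73.5 to 505 (median 232), a log2 difference of -0.63 that was not called (SE 0.37, adjusted p = 0.126). The groups overlapped for all 3 of these tRNAs. Among the 7 columns low in Pmel, mt-Tq (adjusted p = 0.0732) and mt-Te (0.0997) were not called.

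The other tested tRNAs were at most 195 in any column. Log2 differences were -1.49 for mt-Ti (isoleucine), -1.49 for mt-Tt (threonine), -1.56 for mt-Tr (arginine), -1.17 for mt-Ts2 (serine), -0.89 for mt-Tl2 (leucine) and -0.78 for mt-Tm (methionine), all called lower. mt-Tm was not called among the columns low in Pmel (adjusted p = 0.0822), nor mt-Tl2 among those high in Pmel (0.0735). mt-Tc (cysteine) was at -0.48 and was not called (adjusted p = 0.0644). With the 3 IR columns without Y-linked reads mt-Tc was at -1.23 (adjusted p = 7.55e-05) and mt-Ta at -1.25 (adjusted p = 0.032), both called. That comparison called 19 members lower, beside 34.5% of all features, with mt-Nd4 and mt-Cytb the tested members not called. The 19 include mt-Tr, mt-Ts2, mt-Tl2 and mt-Tt, for which the filter favoured lower calls.

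**Figure D4:**
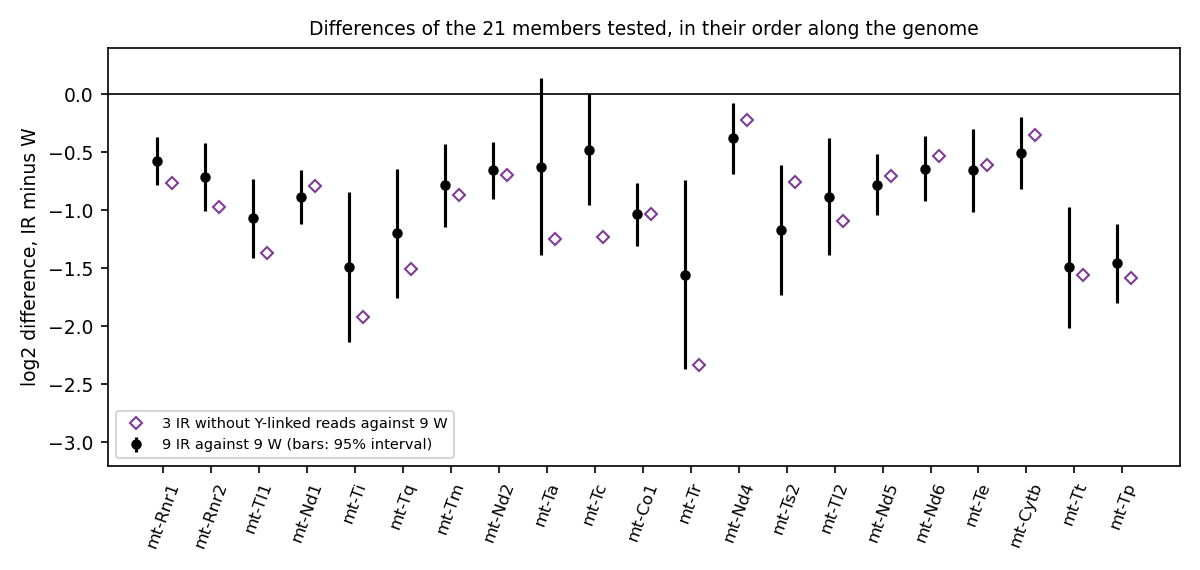
Log2 difference, IR minus W, of the 21 members tested, in genome order. Filled points with bars are the estimates and 95% intervals for 9 IR against 9 W columns, and open diamonds are the estimates for the 3 IR columns without Y-linked reads. Every filled point is below 0, from -0.38 for mt-Nd4 to -1.56 for mt-Tr, and the interval of mt-Ta crosses 0. mt-Tr, mt-Ts2, mt-Tl2 and mt-Tt passed the filter through the W columns.

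Scaling matters for the size of these differences. When the columns were set to equal totals, the median of all features moved from 0.005 to 0.24. On that scale 17 members were lower, beside 29.3% of all features, and mt-Nd4 (log2 difference -0.14, adjusted p = 0.344) and mt-Cytb (-0.27, adjusted p = 0.0632) were no longer called. mt-Co1 was at -0.80 and mt-Tp at -1.22, and no tested member was above 0. Among the 11 columns high in Pmel, 17 members were lower, beside 33.8% of all features, and among the 7 columns low in Pmel 11 were, beside 28.1%. The counts on all these scales and subsets include tRNAs that passed the filter through the W columns, so they overstate the excess over all features. Within the IR group, a comparison of the 4 columns with Y-linked reads and no Xist with the 3 columns without Y-linked reads called 0 of 21 members by limma, beside 0.696% of all features, with 2 members higher and 0 lower at an unadjusted p under 0.05.

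The members did not fall in equal proportion. Each gene or class was expressed as a percent of the summed mitochondrial value of its column, which does not depend on the size factors, and 9 such measures were compared by exact two-sided permutation tests with Benjamini-Hochberg adjustment over the 9. The complex IV mRNAs, which here means mt-Co1, made up 20.1% to 24.6% in IR (median 22.9%) and 25.9% to 29.3% in W (median 28.6%), without overlap (difference -5.24 points, adjusted exact p = 0.00037). mt-Cytb made up 21.99% to 27.4% (median 24.6%) against 19.0% to 23.3% (median 20.5%), higher in IR with overlap (difference 3.64 points, adjusted exact p = 0.00241). Among the 11 columns high in Pmel neither was called, with complex IV at -5.08 points (adjusted exact p = 0.0545) and mt-Cytb at 3.30 (0.109). The complex IV shares did not overlap there either. With 7 against 4 columns and 9 measures, a single separated measure cannot reach an adjusted exact p below 0.0545, so the missing call does not show a loss. Among the 7 low columns neither was called (-5.79 and 4.04, both adjusted exact p = 0.429), where 2 against 5 columns cannot give an exact p below 0.0952. The ratio of mt-Cytb to mt-Co1 was 0.895 to 1.29 in IR and 0.676 to 0.876 in W, so mt-Cytb stood higher relative to mt-Co1 in every IR column.

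The 22 tRNAs together made up 0.249% to 0.419% of the mitochondrial sum in IR (median 0.342%) and 0.338% to 0.531% in W (median 0.408%), a difference of -0.0869 points (adjusted exact p = 0.0327). This call was lost when IR3, IR6, IR9, W1, W2 or W4 was left out, with adjusted exact p up to 0.0654. The remaining measures were not called. The 2 rRNAs together differed by 0.54 points (adjusted exact p = 0.599), mt-Rnr1 by 0.37 (0.271), mt-Rnr2 by 0.171 (0.83), the complex I mRNAs by 1.15 (0.271) and mt-Nd6 by 0.231 (0.271). Without IR8 the 2 rRNAs differed by 0.0952 and mt-Rnr2 by -0.16, and without IR3 by 0.909 and 0.388, so no direction is read for them. The complex V mRNAs rested on 1 read. Without IR8, the complex I mRNAs differed by 1.74 points (adjusted exact p = 0.0281) and mt-Nd6 by 0.334 (adjusted exact p = 0.0207), so both calls turned on that column.

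The complex I mRNAs were then taken singly, a choice made after these values were seen, with adjustment over 4 measures. mt-Nd4 made up 7.85% to 10.5% in IR (median 8.98%) and 6.10% to 8.15% in W (median 6.68%), with a difference of 1.95 points (adjusted exact p = 0.000329). mt-Nd1 went the other way, at 11.6% to 14.3% (median 13.5%) against 13.8% to 16.4% (median 14.97%), a difference of -1.48 points (adjusted exact p = 0.00197). mt-Nd2 (difference 0.662 points, adjusted exact p = 0.282) and mt-Nd5 (-0.221, adjusted exact p = 0.331) were not called. Within the same complex, mt-Nd4 thus took a larger and mt-Nd1 a smaller part of the mitochondrial sum in IR. Shares of 1 sum are tied to each other, so these measures are not independent. Of mt-Nd4, 63.6% of bases lie in runs shared with nuclear transcripts, and of mt-Co1 48.1%, beside 0 for mt-Nd1 and mt-Cytb. The values of mt-Nd4 and mt-Co1 may thus stand for part of each gene, and the effect on these shares was not tested.

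**Figure D5:**
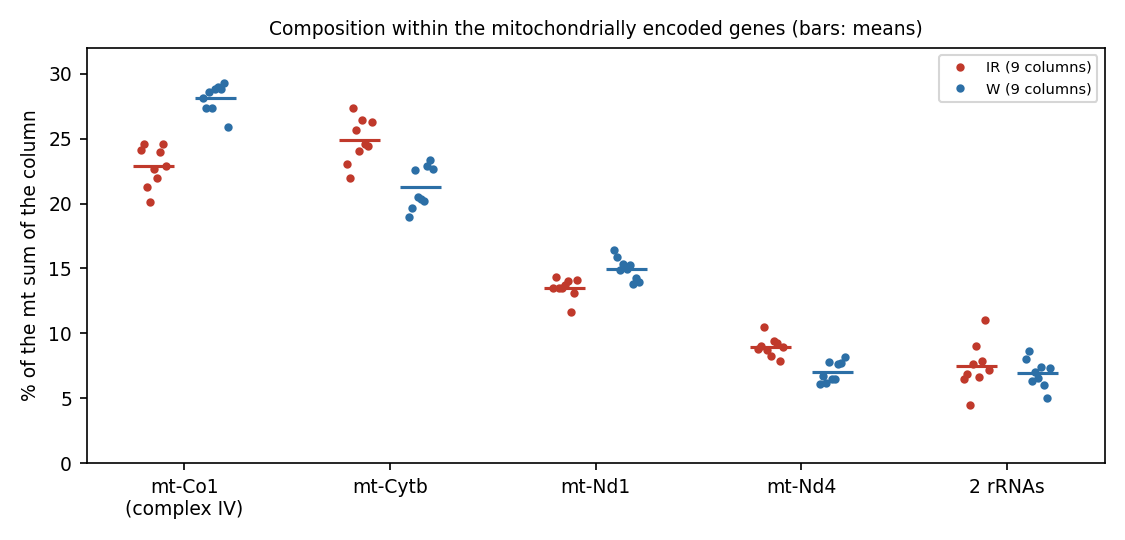
Percent of the summed mitochondrial value taken by mt-Co1 (as the complex IV mRNAs), mt-Cytb, mt-Nd1, mt-Nd4 and the 2 rRNAs in each of the 9 IR and 9 W columns, with group means as bars. For mt-Co1 the highest IR column, at 24.6%, is below the lowest W column, at 25.9%, while mt-Cytb and mt-Nd4 have higher means in IR.

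Nuclear copies of the members were set beside them. Of 17 nuclear transcripts with at least 90% identity to a member over at least 100 bases, 16 were rows of the table and 3 passed the filter. Gm13340, a copy of mt-Co1, was at 16.4 to 74.6 in IR and 27.6 to 158 in W (log2 difference -0.55, SE 0.35, adjusted p = 0.155). Gm13341, a copy of mt-Co2, was at 5.96 to 71.5 against 10.4 to 82.1 (0.01, SE 0.49, adjusted p = 0.984). It was at 35.5 to 82.1 in the 11 columns high in Pmel and at 5.96 to 19.8 in the 7 columns low in Pmel. Gm11410, a copy of mt-Cytb, was at 0 to 23.9 against 5.11 to 31.5 (-0.36, SE 0.55, adjusted p = 0.564). Gm11410 split by Pmel too, at 9.44 to 31.5 in the high columns and 0 to 7.34 in the low ones, while the ranges of Gm13340 overlapped. None of the 3 was called, beside 75.8% of all features in either direction. None was at an unadjusted p under 0.05, and edgeR called 0 and DESeq2 1 of them. The call turned on Pmel: with Pmel class as a term in the fit, and among the 11 columns high in Pmel, all 3 were called lower, and among the 7 low columns 1 was. Of the others, Gm28661 was at 2.83 to 14.9 over all columns, and Gm28438 was at 0 to 4.62 in 17 columns and at 97.9 in IR3, where mt-Nd3 and mt-Tr were both at 0.

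Nuclear genes for the same respiratory complexes were also lower in IR. Of 80 tested, 72 were lower and 0 higher, beside 38.0% lower and 37.8% higher over all features, with a median log2 difference of -1.12 beside 0.005. At an unadjusted p under 0.05, 72 were lower and 0 higher, and edgeR and DESeq2 also gave 72 and 0. By complex, 33 of 36 were lower for complex I, 4 of 4 for complex II, which has no mitochondrially encoded subunit, 8 of 9 for complex III, 11 of 13 for complex IV and 16 of 18 for complex V. The 3 genes with the largest differences in each were Ndufa6 (-2.10), Ndufb4 (-2.09) and Ndufc2 (-2.08) for complex I, and Sdhd (-1.77), Sdhb (-1.68) and Sdha (-0.74) for complex II. For complex III they were Uqcrb (-1.94), Uqcrc2 (-1.58) and Uqcrh (-1.49), for complex IV Cox6c (-2.25), Cox7b (-2.18) and Ndufa4 (-1.96), and for complex V Usmg5 (-2.41), Atpif1 (-2.13) and Atp5mpl (-1.99). Values of Cox6c were 1045 to 1804 (median 1563) in IR and 5116 to 10945 (median 6862) in W. Whether members and nuclear subunits differ in their change was not tested.

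Nuclear genes that serve mitochondrial DNA, RNA and translation had calls in both directions. Of 137 tested, 80 were lower and 30 higher, beside 38.0% and 37.8% of all features, with a median log2 difference of -0.44. Among 7 transcription genes, Polrmt, the mitochondrial RNA polymerase, was the 1 that rose. It was at 304 to 469 (median 401) in IR and 120 to 184 (median 137) in W, without overlap, a log2 difference of 1.44 (SE 0.10, adjusted p = 8.24e-11). The other 6 fell, among them Tfam, which packages mitochondrial DNA and starts its transcription (-1.10), the elongation factor Tefm (-1.57) and Mterf2 (-1.91). Tfam was at 298 to 429 (median 374) against 675 to 843 (median 782), without overlap.

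Of 18 RNA processing and stability genes, 11 were lower and 5 higher, beside 38.0% lower and 37.8% higher over all features. Slirp was at -1.54, its partner in mRNA stability Lrpprc at -0.43, the RNase P subunit Hsd17b10 at -1.24 and Tbrg4 at 1.13. Of 7 regulators of mitochondrial biogenesis, 4 were lower and 3 higher, a list too short to read against the background shares. The coactivator Ppargc1a was at 23.5 to 66.6 (median 49.1) against 82.3 to 154 (median 125), a log2 difference of -1.36 (SE 0.16, adjusted p = 2.52e-07), and Ppargc1b was at -1.12. The related Pprc1 was at 210 to 588 (median 350) against 51.0 to 99.6 (median 68.4), a log2 difference of 2.34 (SE 0.18, adjusted p = 2.92e-10). Members of the same coactivator family thus moved in opposite directions, and neither pair of ranges overlapped.

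Of 8 replication genes, 3 were lower (Polg2 at -1.20, Ssbp1 at -1.04 and Primpol at -0.72) and 3 higher. Of 20 genes of the mitochondrial tRNA synthetases and amidotransferase, 7 were lower and 7 higher, with Gatb at -1.23, Nars2 at -1.08 and Fars2 at -0.90. Counts in these 2 lists are near the background shares of 38.0% lower and 37.8% higher. Lars2, the leucine enzyme, was at 1441 to 6738 (median 2215) in IR and 2216 to 7435 (median 2927) in W and was not called (-0.31, SE 0.26, adjusted p = 0.279). Of 77 mitochondrial ribosomal protein genes, 49 were lower and 11 higher, with a median of -0.64 and with Mrpl32 (-1.74), Mrps14 (-1.62) and Mrps18c (-1.61) furthest down. On the scale of equal column totals these 137 genes had 68 lower and 43 higher, and the respiratory chain lists 69 lower and 0 higher, beside 29.3% lower and 46.6% higher over all features.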

How the data were processed

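Per the labels' protocols, RNA was isolated from liver with Trizol and made into libraries with a NEBNext Ultra kit. GRCm38 and the tools STAR 2.5.0a, Trimmomatic 0.33 and DESeq2 1.14 are listed in the submitters' processing notes. The counter, its annotation and the rule for reads with several placements were not given in the sources used here. The deposited table is named as normalized counts of DESeq2, so its signal values are counts over 1 size factor per column. Every column came out as whole multiples of 1 step (tolerance 0.01 reads, 100% of values), which gave the reads per column. Of 47729 identifiers, 47224 had a GENCODE vM21 symbol.

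Features with a value of at least 10 in at least 9 of 18 columns (12501) were tested with limma 3.58.1 (R 4.3.3, trend, log2(value + 1), Benjamini-Hochberg). A simulated check used the same dispersion for all features, known size factors and 200 changed features of 12419, evenly up and down. It recovered 185 of the 200, with 6 false calls. That setting does not cover a comparison where 75.8% of features are called, nor the choice of scaling. Shares and composition were tested by exact permutation over columns (scipy 1.17.1). The limma intervals reflect the spread between columns, and the floor of 3 reads covers counting error only. Nuclear copies were found with megablast (BLAST 2.17.0). Alternatives were pseudocounts of 0.5 and 8, no filter, 2 rescalings, edgeR 4.0.16 and DESeq2 1.42.0 on recovered reads, header number as a block, leaving out each column, and subsets by sex-linked genes and Pmel, the last chosen after seeing the data. The members, gene lists and tests were chosen with earlier results of these data known. Named genes were all members, the 5 most abundant tRNAs, the 3 called genes with the largest absolute difference per nuclear list, 5 regulators always, and the 5 copies with the highest mean.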

Additional observations from a re-analysis of the deposited data

Results flagged for a closer look

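In 80 groups of 9 columns, 10 held a highest or lowest value set apart from the others by a gap of over 0.493 of the range of the group, which chance gives in about 1 of 20 groups. IR3 accounted for 5 of them. It held mt-Nd1 at 59194 (next highest IR column 50985), mt-Nd4 at 45893 (34283), mt-Nd6 at 17030 (12359) and mt-Cytb at 119770 (94133), and the pseudogene Gm28438 at 97.9 (2.09). These values share 1 library and are not separate observations.

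mt-Tl1 was 406 in IR5 (next 255), and mt-Tq was 774 in W1 (next 444). As shares of the mitochondrial sum, the complex I mRNAs were 39.7% in IR8 (next lowest 43.2%) and mt-Nd1 was 11.6% in IR7 (13.1%). The complex V mRNAs were 0.000185% in W3, from 1 read, and 0 in the other W columns.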

How the results depend on the processing

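No called result changed sign under any alternative run, but results not called did. Without the 6 IR columns with Y-linked reads, the shares of the 2 rRNAs (-0.825 points), mt-Rnr1 (-0.138) and mt-Rnr2 (-0.688) were lower in IR. Without the 2 columns with both sex-linked signals the rRNAs were at -0.188 and mt-Rnr2 at -0.355, mt-Rnr2 was at -0.16 without IR8 and at -0.15 in the columns high in Pmel, and in those low in Pmel complex I was at -0.488, mt-Nd6 at -0.0388 and Lars2 at 0.42 (log2). The number of members called lower was 17 to 21 under every alternative except the 7 columns low in Pmel, where it was 11 (28.1% of all features were lower there). It was 17 among the 11 columns high in Pmel (33.8%). These counts include tRNAs that passed the main filter through the W columns. With the header number as a replicate block it was 19. The correlations of same-numbered columns were -0.105 to 0.14 and 0 of 9 columns correlated best with their own number, so the numbers are not shown to pair samples. Under that block mt-Nd4 was not called (adjusted p = 0.051).

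Among the columns low in Pmel, 15 of the 137 nuclear genes for mitochondrial DNA, RNA and translation were called higher, down from 30 over all columns. Over all features, 3442 of 12501 were higher there. The mitochondrial share differed by -1.51 points among these low columns (exact permutation p = 0.0952). Composition calls were lost there for the tRNAs (-0.117 points), mt-Cytb (4.04) and complex IV (-5.79), and among the columns high in Pmel for the same measures (-0.0596, 3.30 and -5.08). In neither Pmel class can a single separated measure reach an adjusted exact p under 0.05, so these subsets cannot decide on complex IV. Leaving out 1 column gave -0.0978 to -0.0729 for the tRNAs, 0.876 to 1.74 for the complex I mRNAs and 0.157 to 0.334 for mt-Nd6. Without the 2 IR columns with both sex-linked signals, complex I (1.90) and mt-Nd6 (0.345) were called. Nuclear copies called lower were 2 with no filter, 1 with DESeq2, 1 and 3 in the low and high Pmel columns, and 3 with Pmel class as a term. Subsets hold fewer columns; otherwise the cause was not tested. Members with few reads are limited by depth.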
